A study of Macaca fascicularis with 21 samples.

Results

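Trophoblast cells of cultured cynomolgus monkey (Macaca fascicularis) embryos were compared between days 13-14 and days 11-12. The cells are those that the deposited annotation calls TE and derivatives, here TE cells. Counts were summed per embryo, and an embryo entered with at least 5 TE cells. This gave 355 TE cells of 13 embryos, of 380 TE cells among 1453 cells and 21 embryos in the whole series. The days 13-14 group held 137 TE cells of 6 embryos, with 44 and 31 cells in day 13 embryos 1 and 2, and 12, 15, 19 and 16 cells in day 14 embryos 1 to 4. The days 11-12 group held 218 TE cells of 7 embryos, with 45 each in day 11 embryos 1 and 2, and 45, 53, 6, 12 and 12 cells in day 12 embryos 1 to 5. Day 13 embryo 3 had 1 TE cell and was left out. No group carries a treatment or a genetic change. Per the labels' protocols, every embryo started as a blastocyst without its zona that grew alone on Matrigel, a basement membrane gel. The serum content of the medium was raised with time, so age and medium cannot be told apart. The implantation site was dissected, extraembryonic cells were taken off and cells were picked by hand, so the TE cells are those left after this step. No label names a sequencing batch. The age of day 12 embryo 1 and of both day 13 embryos is given as a culture stage. That of the other 10 embryos is given as a developmental stage. Among these 13 embryos only day 12 holds both kinds of label. Day 13 and the kind of label can thus be told apart only through day 12 embryo 1.

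The trophoblast is the outer lineage of the primate blastocyst and builds the embryo's side of the placenta. Its proliferating cytotrophoblast cells fuse into syncytiotrophoblast, which secretes hormones such as chorionic gonadotropin, or leave the epithelium as extravillous trophoblast, which invades the uterine wall and its arteries. Extravillous cells are known for integrin switching, secreted proteases and a matrix of fibronectin and laminin, and much of this is known from human placenta.

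The TE sums held 745473 to 5134817 counts per embryo, and single TE cells 3884 to 480058 counts with a median of 70056. The median count per TE cell averaged 100640 ± 43024 in days 13-14 embryos and 87223 ± 64615 in days 11-12 embryos (SD, n = 6 and 7; 2-sided exact permutation test, p = 0.698). Of 9 trophoblast markers, 8 were highest in the TE family of days 11 to 14, and the keratin KRT18 was higher in amnion cells. The chemokine receptor gene CCR7, for example, had 313 CPM (counts per 1000000 counts) in pooled TE cells, against 1.88 to 6.56 CPM in the other families. TE cells made up 28.6% ± 23.4 of the picked cells in days 13-14 embryos and 49.9% ± 14.6 in days 11-12 embryos (SD, n = 7 each; 2-sided exact permutation test, p = 0.0618). With developmental stage labels alone the shares were 15.9% and 49.0% (n = 5 and 6, exact p = 0.00433). The p was also under 0.05 without day 12 embryo 3 (exact p = 0.0344), day 13 embryo 1 (exact p = 0.00874) or day 13 embryo 2 (exact p = 0.0443). Without any other single embryo it stayed above 0.05, with exact p of 0.0565 to 0.124. These shares follow the picking and are not shares of the embryo.

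Between days 13-14 and days 11-12, the adhesion gene JAM2, the fibronectin gene FN1, the microfibril gene MFAP5 and the invasive trophoblast gene PLAC8 were among the largest rises in TE cells. The largest fall was that of the sphingolipid enzyme DEGS2, which was nearly at 0 by days 13-14. Of 11456 genes tested, 84 were called at an adjusted p under 0.05 (0.733% of genes tested). Of these, 62 rose (0.541%) and 22 fell (0.192%), and 1718 genes had an unadjusted p under 0.05. The lowest days 13-14 embryo lay above the highest days 11-12 embryo for 73 genes (0.637%), and the highest days 13-14 embryo lay below the lowest days 11-12 embryo for 53 (0.463%). Of the called genes, 50 had groups that did not overlap. The median log2 change over all genes tested was -0.01.

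The number of calls rested on single embryos. It was 21 without day 12 embryo 3, 21 without day 12 embryo 4, 23 without day 14 embryo 3, 26 without day 11 embryo 1, 40 without day 11 embryo 2, 42 without day 13 embryo 1, 43 without day 12 embryo 2 and 54 without day 12 embryo 1. Without any other single embryo it was 74 to 83. No called gene that stayed in the test changed sign in these 13 fits. Of the 30 called genes named here by rule, 24 lost their call without day 12 embryo 3 and 24 without day 12 embryo 4. The loss was 23 without day 14 embryo 3, where DEGS2, ESAM, FN1, HARS, MFAP5, PLAC8 and VLDLR kept their calls. It was 21 without day 11 embryo 1, 18 without day 11 embryo 2, 16 without day 12 embryo 2 and 14 without day 13 embryo 1. Leaving out day 13 embryo 2, day 12 embryo 1, day 12 embryo 5, day 14 embryo 1, day 14 embryo 4 or day 14 embryo 2 ended 10, 9, 8, 7, 6 and 2 of these calls. DEGS2, MFAP5, PLAC8 and VLDLR were called in all 13 fits. With developmental stage labels alone PLAC8 and VLDLR lost their calls (log2 change 3.37 and 3.51, adjusted p = 0.0610 and 0.0813), as they did with day as a number (adjusted p = 0.125 and 0.128).

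**Figure D1:**
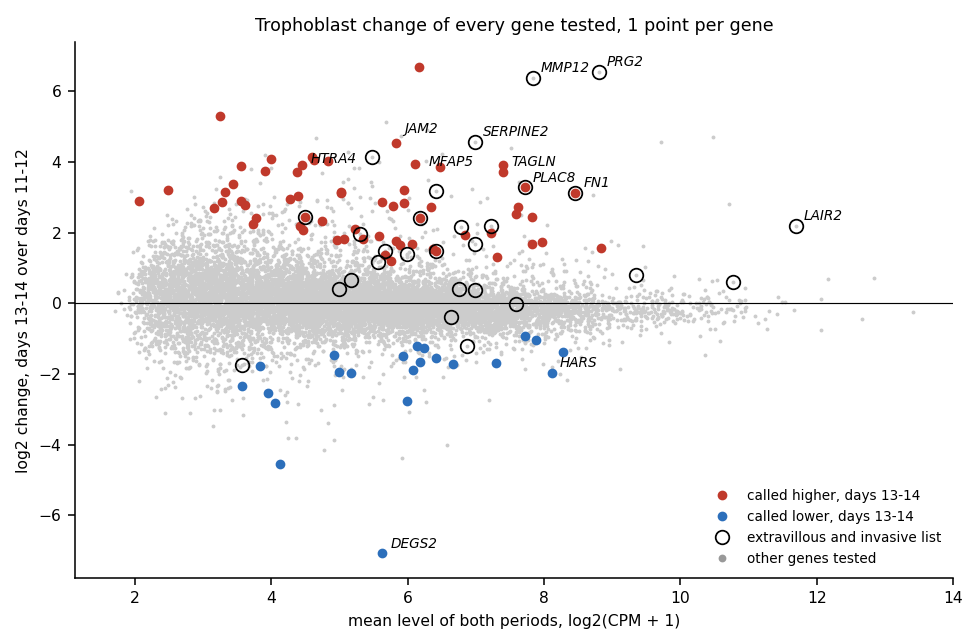
Change in TE cells of every gene tested. The horizontal axis is the mean level of both periods as log2(CPM + 1), the vertical axis the log2 change (days 13-14 over days 11-12), filled red and blue points are the 62 called rises and 22 called falls, and open black circles are the 28 tested genes of the extravillous and invasive list, of which 24 lie above 0.

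A list of 34 extravillous and invasive trophoblast genes was the list with the most rises. Its members were chosen with earlier results of these data known, so its rank among the lists is no test. Of its 28 genes tested, 5 rose, 0 fell, and 24 had a positive change, against 62, 22 and 5675 of all 11456 genes tested. Its median log2 change was 1.58, against -0.01 over all genes. A positive change with an unadjusted p under 0.05 was seen for 18 of its genes, against 929 of all genes tested. The 5 genes that rose were PLAC8, FN1, COL4A1, TIMP1 and ITGA1.

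PLAC8, a gene known from invading extravillous cells of human placenta, ranged over 208, 302 and 862 CPM in days 13-14 embryos, against 9.51, 22.9 and 79.8 CPM in days 11-12 embryos (lowest, median and highest). Every days 13-14 embryo lay above every days 11-12 embryo. Day 14 embryo 3 was the highest of all, and within days 11-12 both day 11 embryos were the highest. Its log2 change was 3.28 ± 0.54 (SE, adjusted p = 0.0230). FN1, which encodes the matrix glycoprotein fibronectin, ranged over 150, 296 and 2308 CPM in days 13-14 embryos, against 46.1, 62.9 and 119.9 CPM in days 11-12 embryos. The groups did not overlap, and day 14 embryo 3 lay far above the other days 13-14 embryos. The log2 change was 3.13 ± 0.60 (SE, adjusted p = 0.0313), and 2.03 without day 14 embryo 3, where the call held. The FN1 call was lost without 5 of the 7 days 11-12 embryos, taken 1 at a time. It was also lost with cells thinned to 20000 counts (2.25, adjusted p = 0.0860) and with per-cell means (1.64, adjusted p = 0.0998).

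ITGA1, the collagen- and laminin-binding integrin subunit that extravillous cells switch on, ranged over 59.7, 127 and 218 CPM in days 13-14 embryos, against 18.7, 45.2 and 60.3 CPM in days 11-12 embryos. Day 14 embryo 1 lay just below the highest days 11-12 embryo, and all other days 13-14 embryos lay above it. The log2 change was 1.48 ± 0.32 (SE, adjusted p = 0.0437). COL4A1, a chain of basement membrane collagen, ranged over 50.0, 69.2 and 388 CPM in days 13-14 embryos, against 11.0, 17.8 and 50.5 CPM in days 11-12 embryos. Day 13 embryo 2 overlapped with day 12 embryo 5 and day 14 embryo 3 stood apart at the top. The log2 change was 2.41 ± 0.51 (SE, adjusted p = 0.0415), and 1.55 with no call without day 14 embryo 3. TIMP1, an inhibitor of matrix metalloproteinases, ranged over 4.26, 48.5 and 55.4 CPM in days 13-14 embryos, against 3.66, 5.84 and 11.8 CPM in days 11-12 embryos. Its days 13-14 embryos fell into a high set of 4 and a low pair, day 13 embryo 2 and day 14 embryo 2, which overlapped with days 11-12. Its log2 change was 2.44 ± 0.55 (SE, adjusted p = 0.0481), and the call was lost in 11 of 13 fits without 1 embryo, as was that of ITGA1.

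The best known products of extravillous cells had large changes that were not called. PRG2, the pregnancy serum proteoglycan that extravillous cells secrete in human placenta, ranged over 3.90, 39.6 and 5160 CPM in days 13-14 embryos, against 0.212, 5.32 and 22.2 CPM in days 11-12 embryos (log2 change 6.55 ± 1.76, SE, adjusted p = 0.110). The protease gene MMP12 ranged over 0.557, 67.1 and 2404 CPM in days 13-14 embryos, against 0, 1.43 and 23.6 CPM in days 11-12 embryos (6.38 ± 1.63, adjusted p = 0.0975). In both genes the groups overlapped and the top value was that of day 14 embryo 3. LAIR2, which encodes a secreted decoy receptor for collagens, averaged 5421 ± 3011 CPM in days 13-14 embryos and 1185 ± 1345 CPM in days 11-12 embryos (SD, n = 6 and 7; log2 change 2.19, adjusted p = 0.110). The serine protease gene HTRA4 reached 378 CPM in day 14 embryo 3, against 3.34 to 49.7 CPM in the other days 13-14 embryos and 0.487 to 10.6 CPM in days 11-12 embryos (log2 change 4.13, adjusted p = 0.0864). SERPINE2, a protease inhibitor, reached 1363 CPM in that embryo, against 6.88 to 39.6 CPM in the other days 13-14 embryos and 2.97 to 20.4 CPM in days 11-12 embryos (4.56, adjusted p = 0.131). Without day 14 embryo 3 both genes overlapped between groups. The fibronectin receptor subunit ITGA5 did not overlap between groups, at 113 to 427 CPM in days 13-14 embryos and 2.66 to 91.7 CPM in days 11-12 embryos, and was not called (log2 change 1.67, adjusted p = 0.119). MMP2, a gelatinase, averaged 2098 ± 1018.5 CPM and 1384 ± 467 CPM (days 13-14 and days 11-12, SD; log2 change 0.60, adjusted p = 0.376).

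**Figure D2:**
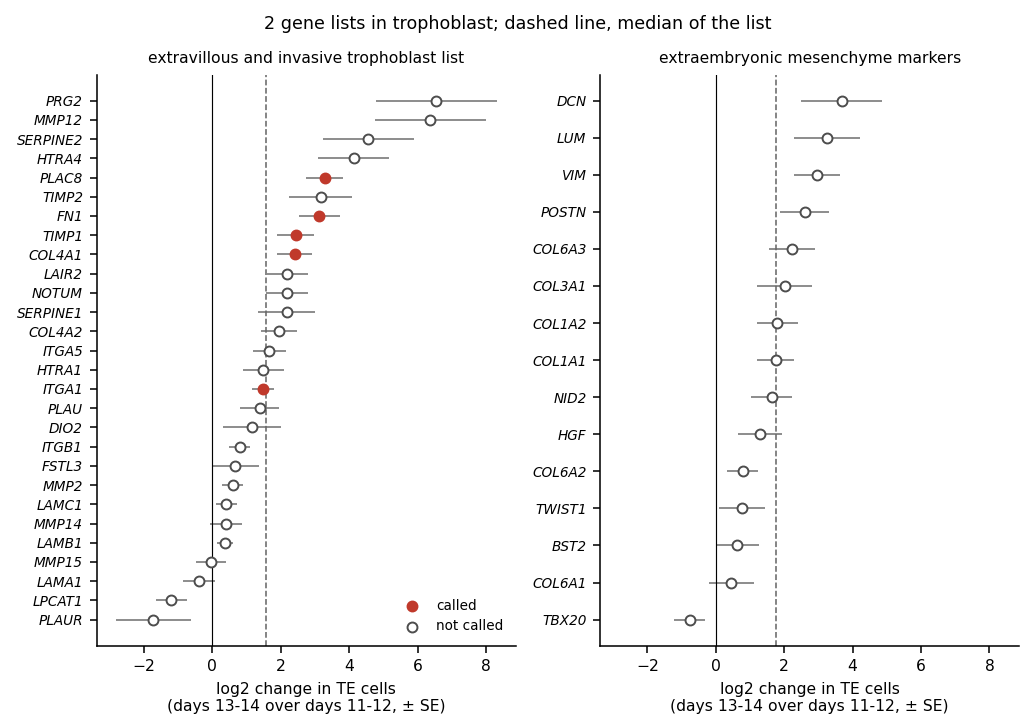
Log2 change in TE cells (days 13-14 over days 11-12, bars ± SE) of the extravillous and invasive genes tested on the left and of the extraembryonic mesenchyme markers tested on the right, with the median of each list as a dashed line. On the left 5 of 28 genes are called, and on the right 0 of 15, with medians of 1.58 and 1.75.

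Markers of extraembryonic mesenchyme (EXMC), the other large extraembryonic cell type of these embryos, moved in the same direction within TE cells. Of 15 EXMC markers tested in TE sums, of 18 in the list, 0 were called, 14 had a positive change and 9 of these an unadjusted p under 0.05, with a median log2 change of 1.75. Over all 11456 genes tested, 5675 had a positive change and 929 of these an unadjusted p under 0.05. The summed level of the 18 markers ranged over 166, 823 and 1448.5 CPM in days 13-14 embryos, against 194, 250 and 438 CPM in days 11-12 embryos (lowest, median, highest). SNAI2 was at 0 in both groups and the defining markers COL1A1, COL3A1, LUM, DCN, POSTN and VIM were not at 0 in either. COL1A1, a chain of fibrillar collagen, averaged 66.6 ± 45.2 CPM in days 13-14 TE sums and 20.0 ± 10.3 CPM in days 11-12 TE sums, against a pooled 1534 CPM in EXMC cells. The part of EXMC RNA in the genes that rose was not tested. Day 13 embryo 2 and day 14 embryo 2 had summed EXMC marker levels of 169 and 166 CPM, below every days 11-12 embryo. In these 2 embryos PLAC8 was at 235 and 373 CPM and FN1 at 184 and 150 CPM, above every days 11-12 embryo, while TIMP1 was at 4.26 and 7.80 CPM, within the days 11-12 range. ITGA1 was at 132 and 61.3 CPM there and COL4A1 at 50.0 and 60.7 CPM, where both ITGA1 values and the COL4A1 value of day 14 embryo 2 lay above the days 11-12 range. Without day 14 embryos 1 and 3 (a choice made after seeing the data), day 13 embryo 1 and day 14 embryo 4 remained with 799 and 847 CPM of EXMC markers, above every days 11-12 embryo. In that fit FN1 had a log2 change of 2.16 (adjusted p = 0.0141) and PLAC8 of 2.96 (adjusted p = 0.0346). ITGA1, COL4A1 and TIMP1 were not called, at 1.40, 1.51 and 2.19 (adjusted p = 0.0685, 0.0854 and 0.138).

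EXMC cells themselves held more FN1, TIMP1, COL4A1 and ITGA1 than TE cells, by their means in both periods. In the embryos with at least 5 cells of both types, FN1 averaged 741 ± 908 CPM in days 13-14 TE sums and 71.9 ± 25.6 CPM in days 11-12 TE sums (SD, n = 5 and 6), and 2930 ± 841 and 2071 ± 1092 CPM in EXMC sums of the same periods. TIMP1 averaged 717 and 364 CPM in EXMC, against 43.4 and 7.01 CPM in TE (days 13-14 and days 11-12). COL4A1 averaged 523 and 614 CPM in EXMC, against 135 and 23.9 CPM in TE. ITGA1 averaged 174.5 ± 64.8 and 131 ± 64.8 CPM in EXMC, against 141 ± 58.8 and 50.0 ± 9.92 CPM in TE (SD). For ITGA1 the days 13-14 values of the cell types overlapped in mean ± SD. PLAC8 was the other way round, at 40.7 and 8.69 CPM in EXMC, against 389 and 37.0 CPM in TE. Without the 525 tested genes that were at least 8 times higher in another cell family, 65 genes were called. Of the 84 called genes only 69 stayed in that test, and 65 of these kept their call. The fit is thus no test of the called genes that were taken out.

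Within embryos the rises were uneven among TE cells. A PLAC8 level of at least 500 CPM was reached by 39 of 137 TE cells in days 13-14 embryos and by 2 of 218 in days 11-12 embryos. FN1 reached that level in 30 and 9 cells, TAGLN in 20 and 0, ANXA1 in 16 and 0, PRG2 in 12 and 2, and MMP12 in 12 and 2. PLAC8 and FN1 reached it together in 18 TE cells of days 13-14 embryos, 8 of which were in day 14 embryo 3, and in 2 TE cells of days 11-12 embryos. Cells of 1 embryo are not replicates, and these counts carry no test. Across the cells of an embryo, FN1 and PLAC8 had Spearman correlations of 0.10 to 0.84 in days 13-14 embryos and -0.56 to 0.29 in days 11-12 embryos, over 6 to 53 cells that share an embryo and differ in depth. FN1 and the EXMC marker COL1A1 had correlations of -0.02 to 0.47 (median 0.33) in days 13-14 embryos and 0.07 to 0.72 (median 0.32) in days 11-12 embryos. FN1 and LUM had -0.34 to 0.49 (median 0.11) in days 13-14 embryos and -0.15 to 0.33 (median 0.20) in days 11-12 embryos.

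Day 14 embryo 3 had the highest correlation of FN1 with PLAC8 and the lowest of FN1 with COL1A1 and with LUM among days 13-14 embryos, so its cells do not stand for those of the other embryos. Its 7 TE cells highest in FN1, of 19, held 1324 to 6787 CPM of FN1 and also 906 to 1685 CPM of PLAC8, 9339 to 18656 CPM of LAIR2 and 206 to 16352 CPM of PRG2. The other 12 TE cells of the embryo held 41.8 to 1006 CPM of FN1 and 2.40 to 606 CPM of PLAC8. The hormone subunit gene CGA had a median of 539 CPM in the 7 cells and 12056 CPM in the other 12. The EXMC markers COL1A1 and LUM had lower medians in the 7 cells, with a COL1A1 median of 49.7 CPM against 88.6 CPM in the other 12, and a LUM median of 56.0 CPM against 146 CPM. The 7 cells held 54.9% of the embryo's TE counts, 94.6% of its FN1 counts, 95.5% of its PRG2 counts and 6.93% of its CGA counts. The embryo, the 7 cells and the 500 CPM level were chosen after the values were seen, and the 7 cells by their FN1, so their FN1 level is no finding.

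**Figure D3:**
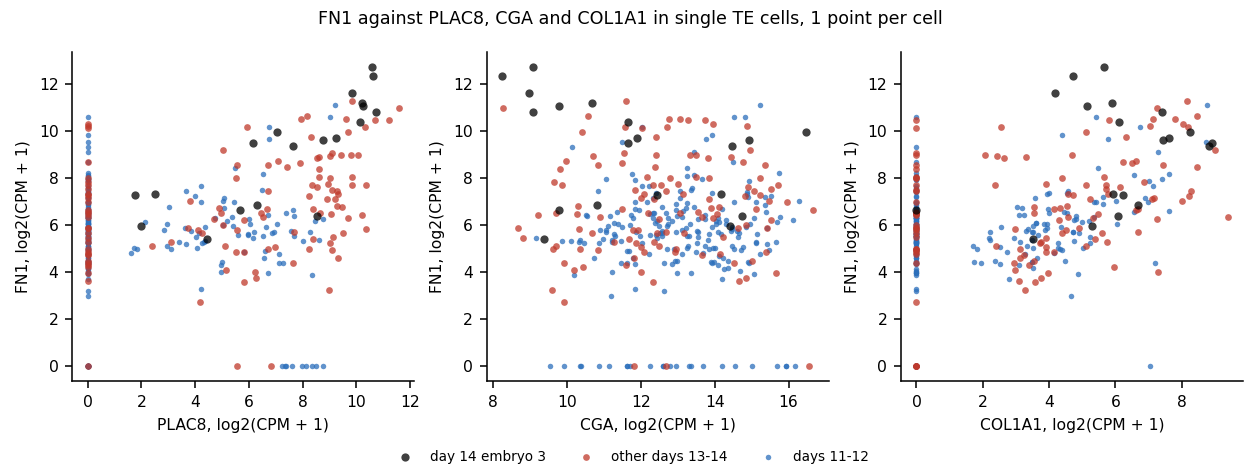
FN1 against PLAC8, CGA and COL1A1 in single TE cells, all axes as log2(CPM + 1), with day 14 embryo 3 in black, the other days 13-14 embryos in red and days 11-12 embryos in blue. The black cells highest in FN1 lie at high PLAC8, at low CGA and at middle values of COL1A1.

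At equal depth, with each cell thinned to 20000 counts, 120 of 137 TE cells of days 13-14 and 175 of 218 of days 11-12 were kept. PLAC8 had a count in 64.2% of them in days 13-14 and in 24.6% in days 11-12, against 76.6% and 38.5% without thinning. In EXMC cells thinned alike the PLAC8 shares were 24.1% and 7.69%. By embryo with at least 5 such cells, the PLAC8 shares of days 13-14 ran over 33.3% to 76.9% in TE and 0% to 83.3% in EXMC. In days 11-12 they ran over 12.5% to 38.5% in TE and 0% to 33.3% in EXMC. The cell types thus overlapped in both periods. MFAP5 had a count in 55.0% and 16.0% of TE cells and in 4.31% and 3.85% of EXMC cells (days 13-14 and days 11-12), over cells pooled from all embryos. By embryo the MFAP5 shares ran over 33.3% to 78.9% in TE and 0% to 16.7% in EXMC in days 13-14, and over 0% to 20.9% in TE and 0% to 16.7% in EXMC in days 11-12, where they overlapped. CGA had a count in 100% of thinned TE and EXMC cells of both periods, and PRG2 in 35.0% and 9.14% of TE cells and in 56.9% and 11.5% of EXMC cells. MMP12 had a count in 22.5% and 3.43% of TE cells and in 36.2% and 3.85% of EXMC cells. These PRG2 and MMP12 shares are over cells pooled from embryos. In single embryos of days 13-14, PRG2 shares ran over 0% to 94.7% in TE and 11.1% to 91.2% in EXMC. Those of MMP12 ran over 0% to 52.6% in TE and 0% to 61.4% in EXMC. For both genes the cell types overlapped by embryo in both periods, so the pooled shares do not rank EXMC above TE. LAIR2 had a count in 97.5% and 81.1% of TE cells, in 85.3% and 38.5% of EXMC cells and in 98.9% and 70.3% of epiblast cells. In epiblast cells PRG2 had a count in 7.45% and 10.8%, and MMP12 in 4.26% and 5.41%. For CGA, PRG2, MMP12 and LAIR2 a count was therefore not particular to TE cells. Whether such a count came from expression in the cell itself was not tested. Median depth was 90602 and 65009 counts per TE cell 52413 and 46356 per EXMC cell and 67503 and 35272 per epiblast cell before thinning.

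Beside PLAC8 and FN1, the 12 largest rises with a known symbol and at least 50 CPM included further genes of matrix, junctions and the actin skeleton, roles that were not tested as a group. MFAP5, which encodes a protein of matrix microfibrils, ranged over 20.8, 69.7 and 393 CPM in days 13-14 embryos, against 3.99, 8.05 and 12.0 CPM in days 11-12 embryos. All days 13-14 embryos were higher, with day 14 embryo 1 the lowest and day 14 embryo 3 the highest. The log2 change was 3.95 ± 0.59 (SE, adjusted p = 0.0129), and 3.17 without day 14 embryo 3. In day 13 embryo 2 and day 14 embryo 2, which had the least EXMC marker RNA, MFAP5 was at 55.3 and 84.1 CPM. HSPG2, the basement membrane proteoglycan perlecan, ranged over 34.0, 60.8 and 309 CPM in days 13-14 embryos, against 5.24, 11.0 and 29.6 CPM in days 11-12 embryos. Its groups did not overlap and its call was lost without day 14 embryo 3 (log2 change 2.76 ± 0.57, adjusted p = 0.0381, and 1.89 without that embryo).

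JAM2, a junctional adhesion molecule, showed the largest rise among the named genes. It ranged over 15.1, 30.4 and 514 CPM in days 13-14 embryos, against 0, 3.65 and 7.95 CPM in days 11-12 embryos. Its groups did not overlap, and its size was set by day 14 embryo 3, with a log2 change of 4.55 ± 0.95 (SE, adjusted p = 0.0437) and of 2.58 with no call without that embryo. The JAM2 call was lost in 10 of 13 fits without 1 embryo, among them all fits without a days 11-12 embryo. ESAM, an immunoglobulin-like adhesion molecule best known from endothelium, ranged over 70.5, 239 and 1021 CPM in days 13-14 embryos, against 28.9, 49.1 and 92.2 CPM in days 11-12 embryos. Only day 14 embryo 1 lay within the days 11-12 range, and day 14 embryo 3 was again highest (log2 change 2.74 ± 0.50, adjusted p = 0.0278, and 1.99 without day 14 embryo 3). APLNR, the receptor of the peptides apelin and ELABELA, ranged over 50.7, 113 and 182 CPM in days 13-14 embryos, against 0.748, 7.98 and 30.4 CPM in days 11-12 embryos. Its groups did not overlap and its highest embryo was day 13 embryo 2 (log2 change 2.83 ± 0.53, adjusted p = 0.0278). The APLNR call was lost without day 14 embryo 3 (2.81, adjusted p = 0.0598) and with developmental stage labels alone (2.66, adjusted p = 0.0916). Of the endothelial markers PECAM1 and CDH5, neither was called. PECAM1 averaged 826 ± 338 CPM and CDH5 399 ± 95.6 CPM in days 13-14 embryos, against 262 ± 161 and 419 ± 80.6 CPM in days 11-12 embryos (SD, n = 6 and 7). Both were highest in TE among the families of these days.

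GJA1, a gap junction connexin, ranged over 9.94, 52.2 and 258 CPM in days 13-14 embryos, against 5.85, 12.0 and 15.1 CPM in days 11-12 embryos. Day 14 embryo 1 overlapped with days 11-12 and the other 5 embryos lay above (log2 change 2.87 ± 0.54, adjusted p = 0.0278, and 2.12 with no call without day 14 embryo 3). TAGLN, the actin-binding protein transgelin, ranged over 25.2, 269 and 652 CPM in days 13-14 embryos, against 7.18, 21.4 and 41.7 CPM in days 11-12 embryos. Here day 14 embryo 2 was the highest and day 13 embryo 2 lay within the days 11-12 range (log2 change 3.72 ± 0.67, adjusted p = 0.0278, and 3.45 with no call without day 14 embryo 3). ANXA1, a phospholipid-binding annexin, ranged over 26.3, 107 and 1303 CPM in days 13-14 embryos, against 7.95, 16.0 and 45.4 CPM in days 11-12 embryos. Day 13 embryo 2 overlapped with days 11-12, and the call was lost in 11 of 13 fits without 1 embryo (log2 change 3.91 ± 0.83, adjusted p = 0.0483, and 2.47 with no call without day 14 embryo 3). FAM107B rose by a log2 change of 3.19 ± 0.66 (SE, adjusted p = 0.0437, and 2.53 with no call without day 14 embryo 3), with 23.5 to 316 CPM in days 13-14 embryos and 2.24 to 33.8 CPM in days 11-12 embryos. Between the periods, EXMC markers moved in the same direction as these genes, as given above, and by embryo the order was mixed. Day 14 embryo 1, with the highest EXMC marker sum (1448.5 CPM), held the least GJA1 and FAM107B of the days 13-14 embryos. Day 13 embryo 2, with a low EXMC marker sum (169 CPM), held the least TAGLN and ANXA1 of that group. EXMC cells also held TAGLN, ANXA1 and GJA1, at 388, 406 and 156 CPM in days 13-14. In days 11-12 they held 104, 111 and 168 CPM. Their part in the TAGLN, ANXA1 and GJA1 rises was not tested.

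**Figure D4:**
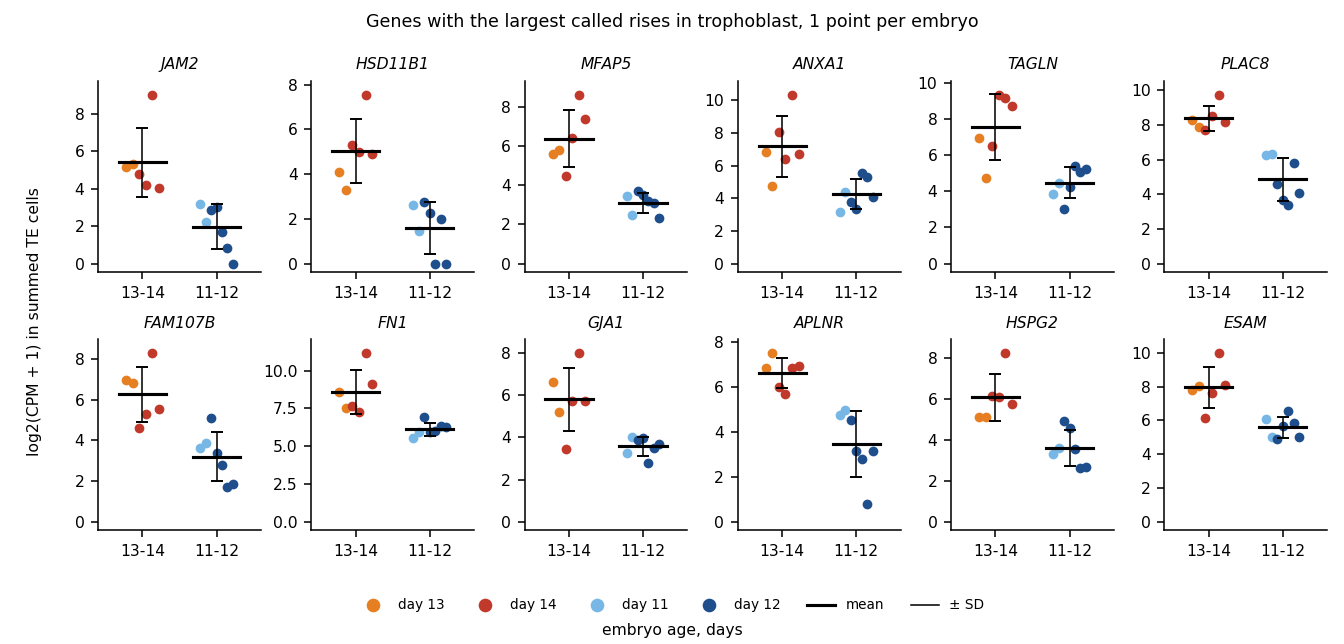
The 12 largest called rises as log2(CPM + 1) of the summed TE cells, 1 point per embryo, with days 13-14 on the left and days 11-12 on the right of each panel, points coloured by day, thick lines for means and thin bars for ± SD. Day 14 embryo 3 is the highest point for every gene shown except TAGLN and APLNR.

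DEGS2, a sphingolipid desaturase and hydroxylase, had the largest fall and was nearly absent from TE cells by days 13-14. It ranged over 0, 0.505 and 1.77 CPM in days 13-14 embryos, against 19.9, 55.4 and 305 CPM in days 11-12 embryos. The groups lay far apart, and by day the means were 239 ± 92.5 CPM at day 11, 39.1 ± 16.8 at day 12, 1.25 ± 0.743 at day 13 and 0.350 ± 0.527 at day 14 (SD, n = 2, 5, 2 and 4). The log2 change was -7.08 ± 0.90 (SE, adjusted p = 0.0109), and -6.40 without day 11 embryo 1. In thinned cells DEGS2 had a count in 1.67% of TE cells of days 13-14 and in 34.3% of days 11-12, and in EXMC cells in 0 of 116, which allows a share of up to 2.59% for cells pooled over embryos, and in 7.69%. In epiblast cells the DEGS2 shares were 10.6% and 21.6% (days 13-14 and days 11-12).

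HARS, the histidyl-tRNA synthetase, ranged over 40.6, 131 and 187 CPM in days 13-14 embryos, against 293, 430 and 619 CPM in days 11-12 embryos. The groups did not overlap, with day 14 embryos 2 and 4 the lowest. It fell by 1.96 ± 0.35 on the log2 scale (SE, adjusted p = 0.0230), and the call was lost without day 12 embryo 3 or day 12 embryo 4. MSX2, a homeobox transcription factor of trophoblast, was the only called gene among 19 tested trophoblast regulators. It ranged over 32.5, 43.6 and 74.1 CPM in days 13-14 embryos, against 85.6, 139 and 307 CPM in days 11-12 embryos, with no overlap (log2 change -1.72 ± 0.32, adjusted p = 0.0275). The median log2 change of the 19 regulators was -0.26, and 15 were negative. GATA2, TFAP2A and TFAP2C had log2 changes of -0.41, -0.61 and -0.04, and the fusion regulator GCM1 of -0.19, all with adjusted p of 0.416 or more. OVOL1, a zinc finger regulator, had -1.68 (adjusted p = 0.159) and HAND1 1.49 (adjusted p = 0.282).

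EGLN3, a prolyl hydroxylase that marks hypoxia-inducible factor for decay, ranged over 24.8, 85.6 and 104 CPM in days 13-14 embryos, against 149, 200 and 363 CPM in days 11-12 embryos. The groups did not overlap and both day 13 embryos were the lowest (log2 change -1.69 ± 0.34, adjusted p = 0.0313). In the same list of 27 tested hypoxia and glycolysis genes, PDK1, a kinase that holds back pyruvate oxidation, rose, at 18.6 to 71.9 CPM in days 13-14 embryos and 1.46 to 11.9 CPM in days 11-12 embryos (log2 change 2.20 ± 0.47, adjusted p = 0.0415). The EGLN3 call was lost in 7 of 13 fits without 1 embryo, and the PDK1 call in 10. The list had 1 rise, 1 fall and a median log2 change of -0.12. The glucose transporter SLC2A1 averaged 1038 ± 389 CPM in days 13-14 embryos and 1717 ± 561 CPM in days 11-12 embryos and was not called (log2 change -0.73, adjusted p = 0.207).

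The other large falls were of genes with varied roles. SPDYA, an activator of cyclin-dependent kinases, averaged 16.4 ± 9.29 CPM in days 13-14 embryos and 109 ± 82.7 CPM in days 11-12 embryos (log2 change -2.75). SLC27A5, a fatty acid and bile acid CoA ligase, averaged 14.0 ± 5.76 and 56.2 ± 33.1 CPM (-1.98), and SAMD8, a ceramide phosphoethanolamine synthase, 28.4 ± 10.1 and 105 ± 50.6 CPM (-1.89), each with days 13-14 first. The log2 change was -1.66 for the peptidase gene NAALAD2, -1.54 for TRAPPC6A of a vesicle tethering complex, -1.48 for the adaptor gene ANKS1A, -1.38 for the actin nucleator FMN1 and -1.26 for TRIM60. Their adjusted p-values ran between 0.0230 and 0.0437, that of TRAPPC6A being the lowest. The groups did not overlap for SPDYA, SLC27A5, TRAPPC6A, ANKS1A and TRIM60, and overlapped for SAMD8, NAALAD2 and FMN1. The calls of SPDYA, NAALAD2 and TRIM60 were each lost in 10 of 13 fits without 1 embryo. Those of FMN1, SLC27A5, SAMD8, ANKS1A and TRAPPC6A were lost in 9, 8, 6, 5 and 1 of these fits.

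**Figure D5:**
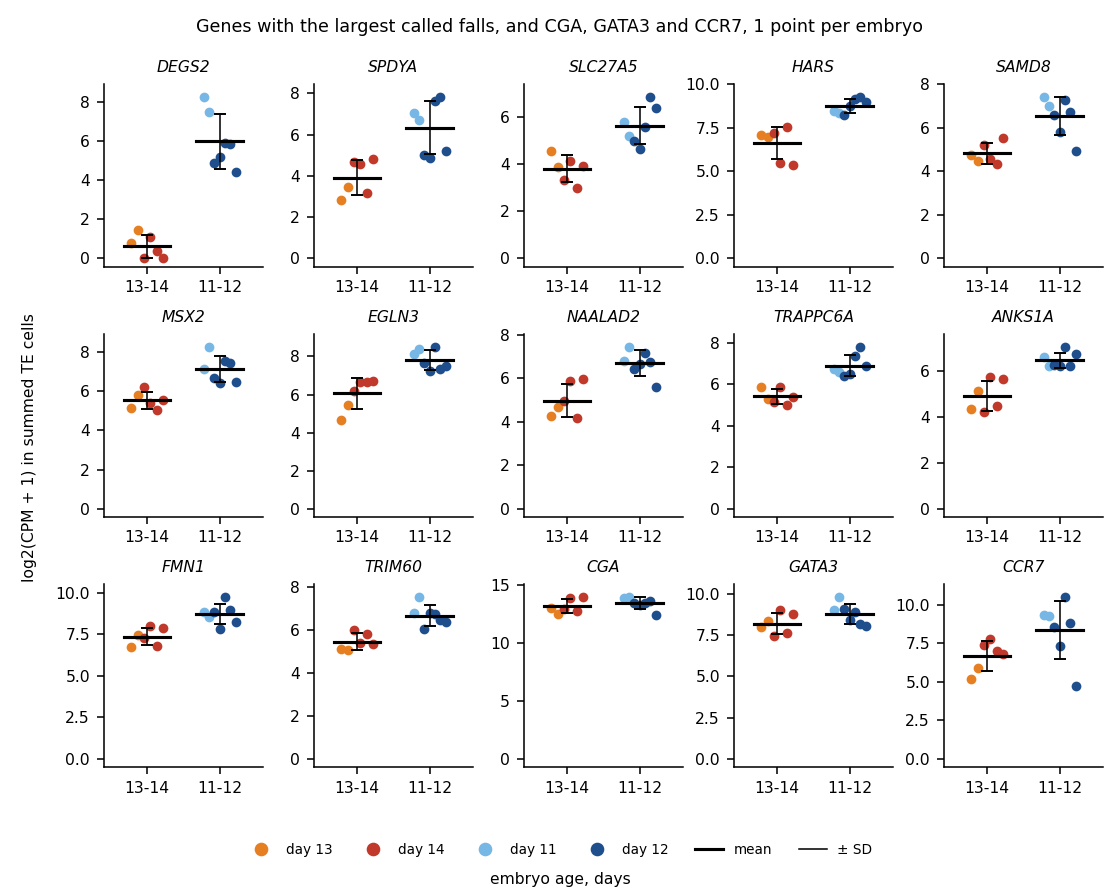
The 12 largest called falls and the given markers CGA, GATA3 and CCR7 as log2(CPM + 1) of the summed TE cells, 1 point per embryo, with days 13-14 on the left and days 11-12 on the right, points coloured by day, thick lines for means and thin bars for ± SD. DEGS2, HARS and MSX2 do not overlap between groups, while CGA, GATA3 and CCR7 do.

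The 3 genes that mark these cells were not called. CGA, the common subunit of the glycoprotein hormones, ranged over 5754, 8124 and 16150 CPM in days 13-14 embryos, against 5621, 11504 and 16146 CPM in days 11-12 embryos. The ranges were nearly the same (log2 change -0.23 ± 0.27, adjusted p = 0.745), and the sign turned with per-cell means and with thinned cells. GATA3, a trophoblast transcription factor, ranged over 173, 289 and 525 CPM in days 13-14 embryos, against 267, 471 and 899 CPM in days 11-12 embryos (log2 change -0.58 ± 0.32, adjusted p = 0.414). CCR7 ranged over 35.2, 117 and 216 CPM in days 13-14 embryos, against 25.3, 453 and 1434 CPM in days 11-12 embryos. Day 12 embryo 5 was its lowest embryo of all and day 12 embryo 3 its highest, so that the groups overlapped (log2 change -2.16 ± 0.67, adjusted p = 0.151). By DESeq2 the CCR7 difference passed (log2 change -2.16, adjusted p = 0.0101), and over its other settings the adjusted p in edgeR or limma was above 0.05.

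Among 17 tested syncytiotrophoblast and hormone genes, GDF15, a stress-responsive cytokine abundant in placenta, rose, 0 fell, and the median log2 change was 0.75. GDF15 ranged over 223, 308 and 527 CPM in days 13-14 embryos, against 6.65, 42.4 and 147 CPM in days 11-12 embryos. The groups did not overlap, and day 14 embryo 4 was its highest embryo (log2 change 2.52 ± 0.48, adjusted p = 0.0285). The GDF15 call was lost without day 14 embryo 3 (2.58, adjusted p = 0.0598) and with developmental stage labels alone (2.62, adjusted p = 0.0813). The leptin gene LEP, a placental hormone in primates, ranged over 142, 764 and 1340 CPM in days 13-14 embryos, against 5.32, 74.6 and 233 CPM in days 11-12 embryos, and just missed the threshold (log2 change 3.08 ± 0.67, adjusted p = 0.0529). CRH, the corticotropin-releasing hormone that primate placenta makes, had a log2 change of 5.14 (adjusted p = 0.0864) and the relaxin-family gene INSL4 of 1.75 (adjusted p = 0.169). Of the 5 negative changes in the list, none called, the larger were those of PGF, a placental growth factor, at -1.27 (adjusted p = 0.112), of the fusogen gene ERVFRD-1 at -2.09 (adjusted p = 0.100) and of the natriuretic peptide gene NPPA at -1.06 (adjusted p = 0.411). CGA and LHB, of the gonadotropin subunits, had -0.23 and -0.02.

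Of 11 tested steroid genes, HSD11B1, which regenerates active glucocorticoid, rose and 0 fell. It ranged over 8.87, 30.0 and 188 CPM in days 13-14 embryos, against 0, 2.99 and 5.79 CPM in days 11-12 embryos, with no overlap and with day 14 embryo 3 on top (log2 change 4.04 ± 0.76, adjusted p = 0.0278, and 2.99 with no call without that embryo). The side-chain cleavage enzyme CYP11A1 averaged 585 ± 434 CPM in days 13-14 embryos and 1237 ± 456 CPM in days 11-12 embryos and was not called (log2 change -1.08, adjusted p = 0.255). Progesterone-forming HSD3B1 averaged 1136 ± 933 and 1130 ± 516 CPM (days 13-14 and days 11-12, log2 change 0.01, adjusted p = 0.995). VLDLR, a lipoprotein receptor held in the list of amino acid and endoplasmic reticulum stress genes, rose in that list of 22 tested, at 17.2, 30.0 and 86.2 CPM in days 13-14 embryos, against 0, 1.33 and 6.16 CPM in days 11-12 embryos. The groups did not overlap and the 2 day 13 embryos were the highest (log2 change 3.91 ± 0.68, adjusted p = 0.0230). ATF4, the central regulator of that response, had a log2 change of -0.16 (adjusted p = 0.767).

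Lists of general cell functions had no calls in either direction, where 0.733% of all genes tested were called. At that share a list of this size mostly holds 0 calls, so 0 calls does not set a list apart from all genes. Of 31 tested nuclear genes of oxidative phosphorylation, 0 were called, 25 were negative and 9 of these had an unadjusted p under 0.05, with a median log2 change of -0.24. Over all 11456 genes tested, 5781 were negative and 789 of these had an unadjusted p under 0.05. The 30 S phase genes had 0 calls, 24 negative changes and a median of -0.23, and the 29 mitosis genes 0 calls and a median of 0.12. The medians were -0.16 over 25 ribosomal protein genes, -0.03 over 25 cytotrophoblast and epithelial genes, -0.13 over 20 genes of cholesterol synthesis and -0.06 over 27 nutrient transporters and binding proteins, with 0 calls in each. Medians were positive over 29 secreted signals and receptors (0.53), 13 interferon genes (0.67), 17 immediate early and stress genes (0.36) and 13 imprinted genes (0.19), and negative over 8 genes of DNA methylation (-0.09), again with 0 calls. Of the markers of epiblast, visceral and yolk sac endoderm, amnion, and blood or endothelium, 3, 2, 3 and 2 were tested, with 0 calls. The summed level of the amnion list was 183 to 1454 CPM in days 13-14 embryos and 79.9 to 335 CPM in days 11-12 embryos, with day 14 embryo 3 at the top. The blood and endothelium list summed to 583 to 1604 and 361 to 854 CPM, the epiblast list to 26.2 to 492 and 89.3 to 235 CPM, and the endoderm list to 3.70 to 252 and 24.8 to 187 CPM (days 13-14 and days 11-12).

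Whether TE cells changed differently from EXMC cells of the same embryos was tested with the embryo as a block, in 5 days 13-14 and 6 days 11-12 embryos. Of 11787 genes tested, the changes differed for 27 (0.229%), being more positive in TE for 22 and more negative for 5. Of these, 5 were also called in TE itself, namely FSTL1, LAPTM4B, FERMT2, HARS and EGLN3, and the first 3 of them were named after their values were seen. Both fits share the TE sums, so this overlap is no separate support. HARS averaged 129 ± 53.4 CPM in days 13-14 TE sums and 415 ± 107 CPM in days 11-12 TE sums, and 107 ± 16.2 and 111 ± 30.3 CPM in EXMC sums (SD; difference of log2 changes -1.75, adjusted p = 0.0393). EGLN3 averaged 70.2 ± 36.3 and 257 ± 93.7 CPM in TE, and 36.1 ± 7.98 and 27.4 ± 10.8 CPM in EXMC (days 13-14 and days 11-12; difference -2.33, adjusted p = 0.0410). In both genes the EXMC sums of the periods overlapped in mean ± SD while the TE sums did not.

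FSTL1, a secreted glycoprotein, averaged 377 ± 266 and 111 ± 46.7 CPM in TE and 257 ± 61.8 and 373 ± 84.2 CPM in EXMC (days 13-14 and days 11-12; difference 2.18, adjusted p = 0.00663). The lysosomal membrane gene LAPTM4B averaged 259 ± 142 and 60.8 ± 16.8 CPM in TE and 229 ± 97.2 and 325 ± 118 CPM in EXMC (difference 2.45, adjusted p = 0.0131). The integrin activator FERMT2 had a difference of 2.18 (adjusted p = 0.0410). The FN1, PLAC8 and DEGS2 changes were not shown to differ from those in EXMC, with differences of 2.11, 1.69 and -6.23 (adjusted p = 0.306, 0.828 and 0.0703). No call was left when both types needed at least 10 cells. Against epiblast cells, in 3 days 13-14 and 5 days 11-12 embryos, 0 of 14180 genes differed (0%) by edgeR, and 924 had an unadjusted p under 0.05.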

How the data were processed

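Single-cell RNA libraries were made by template switching and read at the 3' end, with up to 96 barcoded cells per pool, per the labels' protocols. Reads were aligned with STAR, per the submitters' processing notes. No version, build, rule for molecular identifiers or method of annotating cells is named there. The values the authors deposited are raw counts, all whole numbers, over 30792 genes and 1453 cells, and the families are the deposited annotation. No 2 cells had identical counts. The table gives cell names and no barcode sequences, so barcodes shared between libraries were not counted. Of 16890 genes with LOC names, 3273 received a symbol through RefSeq gene identifiers, among them HSD11B1, FAM107B, VLDLR, EGLN3, NAALAD2, CRH, ERVFRD-1, CYP11A1, MMP2 and LUM. Genes without a symbol held 6.70% of TE counts. No sequence or coordinate was used. Mitochondrially encoded and sex-linked genes were not analysed here.

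Counts were summed per embryo over its TE cells, the embryo being the replicate. Genes were kept with filterByExpr, scaled by TMM and tested with edgeR 4.0.16 quasi-likelihood (R 4.3.3), days 13-14 over days 11-12, with Benjamini-Hochberg adjustment over all 11456 genes and calls under 0.05. Values in CPM are TMM-scaled, except pooled family levels, single-cell levels and summed marker lists, which are plain CPM. Alternatives were median-of-ratios scaling, DESeq2 1.42.0, other filters, other cell minimums, label type, day as a number, per-cell means with limma 3.58.1 at a pseudocount of 1, genes of other families left out, cells thinned to 20000 counts and each embryo left out. The test was checked on simulated counts. Single values were compared by 2-sided exact permutation tests. Intervals and limits cover counting error only. No label says that the embryos come from separate parents or days.

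Named genes were the 12 largest rises and 12 largest falls among called genes with a symbol and at least 50 CPM in the higher group, CGA, GATA3 and CCR7, and up to 6 called members of each list with the smallest p, 33 genes in all. List members known for the list's function were named whatever their test. The members and lists were chosen with earlier results of these data known. HSD3B1 and ERVFRD-1 have close copies, among which reads may be split.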

Additional observations from a re-analysis of the deposited data

Results flagged for a closer look

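The gap between the most extreme embryo and its neighbour, on log2(CPM + 1), passed the 95% limit for 5 of 132 tests in 66 groups, where chance flags about 1 in 20 groups. In days 13-14, day 14 embryo 3 stood above the other embryos for JAM2 (514 CPM), HSPG2 (309 CPM) and COL4A1 (388 CPM). In days 11-12, day 12 embryo 5 stood below the others for CGA (5621 CPM) and day 12 embryo 4 for ITGA1 (18.7 CPM).

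HARS and EGLN3 fell in TE cells by more than in EXMC cells of the same embryos, with differences of log2 changes of -1.75 and -2.33 in a test of the difference itself (edgeR, adjusted p = 0.0393 and 0.0410).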

How the results depend on the processing

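Against 84 calls (62 rises and 22 falls), DESeq2 gave 500 (333 and 167), at least 10 TE cells per embryo 21 (19 and 2), developmental stage labels alone 23 (22 and 1), day as a number 17 (14 and 3), cells thinned to 20000 counts 44 (35 and 9) and the fit without day 14 embryos 1 and 3 48 (41 and 7). Per-cell means with limma gave 118 calls with 97 rises. At least 10 TE cells left out only day 12 embryo 3, so that fit is the one without this embryo. At least 3 TE cells kept the same embryos as the main fit. Neither is a separate alternative. Leaving out each embryo gave 21 to 83 calls, 19 to 71 rises and 2 to 27 falls. The thinned fit and the fit without 2 embryos were added after seeing the data. The cause of these differences was not tested. Other scaling, filters and the label covariate gave 83 to 124 calls. Leaving out genes 8 times higher in another family gave 65, with 69 of the 84 called genes still tested.

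Of the 84 genes, DESeq2 called 83 and developmental stage labels alone 17. Median-of-ratios scaling called 82 of them, the label covariate 67, the fit without a filter on low counts 57 and per-cell means 57. Day as a number called 13. The filter of at least 10 CPM in 6 embryos kept 64 in the test and called 64, and thinned cells kept 46 and called 25. Among the 30 named called genes, 460 values over all settings kept their direction and call, 306 lost the call and 0 changed sign. These counts include the repeated fits with at least 10 and at least 3 TE cells. CGA turned to 0.21 with per-cell means and to 0.30 with thinned cells, and CCR7 passed with DESeq2 (-2.16, adjusted p = 0.0101). The 27 calls against EXMC became 0 with at least 10 cells, 12 with developmental stage labels and 13 without day 14 embryos 1 and 3. The 0 calls against epiblast became 2 with at least 10 cells and 11 with developmental stage labels. The TE share difference of -21.3 points became -33.1 with developmental stage labels and -28.4 to -17.0 with an embryo left out. No paired analysis was possible because the replicate numbers only name embryos and each embryo belongs to 1 period.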

Other observations

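Several genes outside the naming rule were also called in TE cells, and these were chosen after their values were seen. ECM1, a secreted matrix protein, ranged over 468, 697 and 941 CPM in days 13-14 embryos, against 116, 227 and 365 CPM in days 11-12 embryos (lowest, median and highest), with no overlap (log2 change 1.57 ± 0.25, SE, adjusted p = 0.0139). DDC, the decarboxylase that forms dopamine and serotonin, ranged over 8.16, 14.1 and 40.5 CPM in days 13-14 embryos, against 0, 0 and 0.973 CPM in days 11-12 embryos, again with no overlap (log2 change 5.31, adjusted p = 0.0109).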
